A study of Danio rerio with 12 samples.

Results

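A set of 7 genes was followed through 12 zebrafish (Danio rerio) liver libraries. All stood higher in the liver of control females than of control males, and higher in males given estradiol than in control males. They are nots, rcn3, rtn1a, ppm1la, mfsd6l, agpat4 and tmed1a, and they make up 7 of the 14581 genes of the deposited table. All 7 passed the filter on low values (1 FPKM or more in 3 or more libraries), which left 9190 genes for testing. FPKM, a fragment number divided by transcript length and by the size of the library, is per length, so levels can be set side by side between genes. The 7 were chosen by their symbols because of their values in female DMSO, male DMSO and male estradiol livers. Differences among those 3 groups are therefore given here as a description, and tests are given only for differences that involve the female estradiol libraries, which the choice did not use. The other side of each of these differences was used in the choice, which the p-values do not allow for.

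The groups, with 3 libraries each, were adult wild-type females given β-estradiol, adult wild-type males given β-estradiol, adult wild-type females given DMSO (the solvent) and adult wild-type males given DMSO. Dosing was daily for 6 weeks and began at 3 months of age, with the fish housed in separate tanks so that food intake could be controlled, per the labels' protocols. The dose is not given in the sources used here. The labels do not say that each library came from its own fish, so the spread behind each p-value is that between libraries and may be technical. The DMSO libraries carry numbers 7 to 12 and the estradiol libraries numbers 19 to 24, so treatment cannot be told apart from a difference in when or how the libraries were made.

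Estradiol, the main ovarian estrogen, acts in the liver of egg-laying fish through nuclear estrogen receptors, of which esr1 is the one most strongly induced by the hormone itself. In females it turns hepatocytes to making and secreting egg yolk and egg coat proteins, and male liver can do the same when given the hormone. Secretion on that scale depends on the endoplasmic reticulum, where proteins are folded and membrane lipids are made, and on vesicles that carry cargo to the Golgi apparatus. Of the 7 genes, nots encodes nothepsin, a liver protease of the aspartic class that female fish express. rcn3 encodes reticulocalbin 3, a calcium-binding protein of the endoplasmic reticulum lumen. rtn1a encodes a reticulon, a membrane protein that helps to shape endoplasmic reticulum tubules. tmed1a encodes a member of the p24 family of membrane proteins that cycle between the endoplasmic reticulum and the Golgi apparatus. agpat4 encodes an acyltransferase that makes phosphatidic acid from lysophosphatidic acid. ppm1la encodes a protein phosphatase of the PP2C family, whose mammalian counterpart PPM1L sits in the endoplasmic reticulum membrane and acts on the ceramide transfer protein CERT. mfsd6l belongs by name to the major facilitator superfamily of membrane transporters.

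The libraries differed in ways beyond their labels. The sum of FPKM ran from 304905 in male estradiol replicate 1 to 1217095 in female estradiol replicate 1. The hepatocyte marker fabp10a was at 6560 to 15596.5 FPKM in the estradiol libraries and at 32209.5 to 82284 FPKM in the DMSO libraries. Of the hepatocyte markers none was at 0 in the estradiol groups, 1 in female DMSO and 3 in male DMSO. These were the transferrin gene tfa in both DMSO groups, and the apolipoprotein genes apoa1b and apoa2 in male DMSO. Markers of this list thus differed between the groups in opposite directions, so their sum is not a neutral measure of hepatocyte content. Summed over 15 hepatocyte markers of 18 listed, the range of FPKM was 35546 to 55733 for female estradiol, 25448 to 137123 for male estradiol, 81993 to 104688 for female DMSO and 95325 to 113477 for male DMSO. Oocyte and ovary markers (22 of 27 in the table) summed to 6235, 11.1 and 903 FPKM in female estradiol replicates 1 to 3, 5055, 68.5 and 2311 in male estradiol, 75.7, 379 and 16.8 in female DMSO, and 3.20, 0.328 and 3.93 in male DMSO. Exocrine pancreas markers (16 of 29) had sums of 112 to 612 FPKM for female estradiol, 114 to 593 for male estradiol, 2471 to 11491 for female DMSO and 5568 to 7581 for male DMSO. Intestine markers (11 of 17) were highest in female DMSO replicates 1 and 2, with sums of 2601 and 2455 FPKM. The vitellogenin vtg1, an egg yolk precursor that female liver makes in quantity, was listed at 0 in all female and all estradiol libraries and at 310.3, 41.1 and 35.0 FPKM in male DMSO, which goes against the labels. An exact 0 in such a table can be a failed estimate, and none of the 7 genes was at 0 in any library.

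nots stood far above the other members. It was at 3750.1, 1254 and 1186 FPKM in female estradiol libraries, 718, 3610.4 and 3563 FPKM in male estradiol libraries, 2153, 2260.4 and 1650.4 FPKM in female DMSO libraries, and 6.68, 3.34 and 8.68 FPKM in male DMSO libraries. The lowest library of the other groups, male estradiol replicate 1, was still far above the highest male DMSO library. Ranked by level among the 9190 genes, nots took places 88 to 104 in female estradiol libraries, 24 to 93 in those of male estradiol and 94 to 123 in those of female DMSO, against places 2554 to 4963 in those of male DMSO. Estradiol males thus held this protease transcript among the most abundant messages of the liver, where control males did not. In bulk tissue, fewer cells that make a transcript and less of it per cell cannot be told apart, which applies to every gene described here. Separation of libraries between groups was counted over all genes only for female estradiol against male DMSO. Elsewhere such a separation is not read as particular to a gene.

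rcn3 and rtn1a, the reticulocalbin and the reticulon, came next in level. rcn3 was at 119, 163 and 73.1 FPKM in female estradiol, 26.1, 60.6 and 51.5 FPKM in male estradiol, 278, 157 and 176 FPKM in female DMSO, and 1.56, 2.99 and 7.66 FPKM in male DMSO. Its male estradiol libraries lay between the other groups, above all male DMSO libraries and below all female ones of either treatment. rtn1a was at 213, 475 and 406 FPKM in female estradiol, 32.4, 302 and 285 FPKM in male estradiol, 446, 229 and 269 FPKM in female DMSO, and 4.23, 3.59 and 4.69 FPKM in male DMSO. Its male estradiol replicates 2 and 3 lay inside the female DMSO range, and replicate 1 lay well below it.

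tmed1a, the p24 family gene, was under 1 FPKM in all male DMSO libraries. Its values were 54.6, 19.7 and 15.6 FPKM in female estradiol, 11.8, 4.54 and 14.3 FPKM in male estradiol, 14.0, 15.8 and 19.3 FPKM in female DMSO, and 0.563, 0.999 and 0.291 FPKM in male DMSO. Only replicate 3 of male estradiol reached the female DMSO range, and all female estradiol libraries were above all male estradiol libraries.

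ppm1la and agpat4, the phosphatase gene and the acyltransferase gene, were expressed at moderate levels. ppm1la was at 24.5, 11.95 and 8.34 FPKM in female estradiol, 12.95, 11.1 and 14.8 FPKM in male estradiol, 44.0, 28.7 and 63.5 FPKM in female DMSO, and 2.18, 0.812 and 0.791 FPKM in male DMSO. Every estradiol library of either sex lay below every female DMSO library and above every male DMSO library. agpat4 was at 9.34, 6.79 and 4.87 FPKM in female estradiol, 6.44, 9.37 and 7.49 FPKM in male estradiol, 14.9, 6.57 and 15.2 FPKM in female DMSO, and 0.926, 0.566 and 0.239 FPKM in male DMSO. The 3 groups with higher agpat4 overlapped, and all their libraries were above all male DMSO libraries.

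mfsd6l, the transporter-like gene, had the lowest mean of the 7 in both female groups, while agpat4 had the lowest in both male groups. mfsd6l was at 6.89, 3.54 and 2.28 FPKM in female estradiol, 10.3, 6.31 and 8.10 FPKM in male estradiol, 7.64, 4.203 and 5.63 FPKM in female DMSO, and 0.542, 0.762 and 0.563 FPKM in male DMSO. Here male estradiol held the highest library of all, and the other groups apart from male DMSO overlapped with it.

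**Figure D1:**
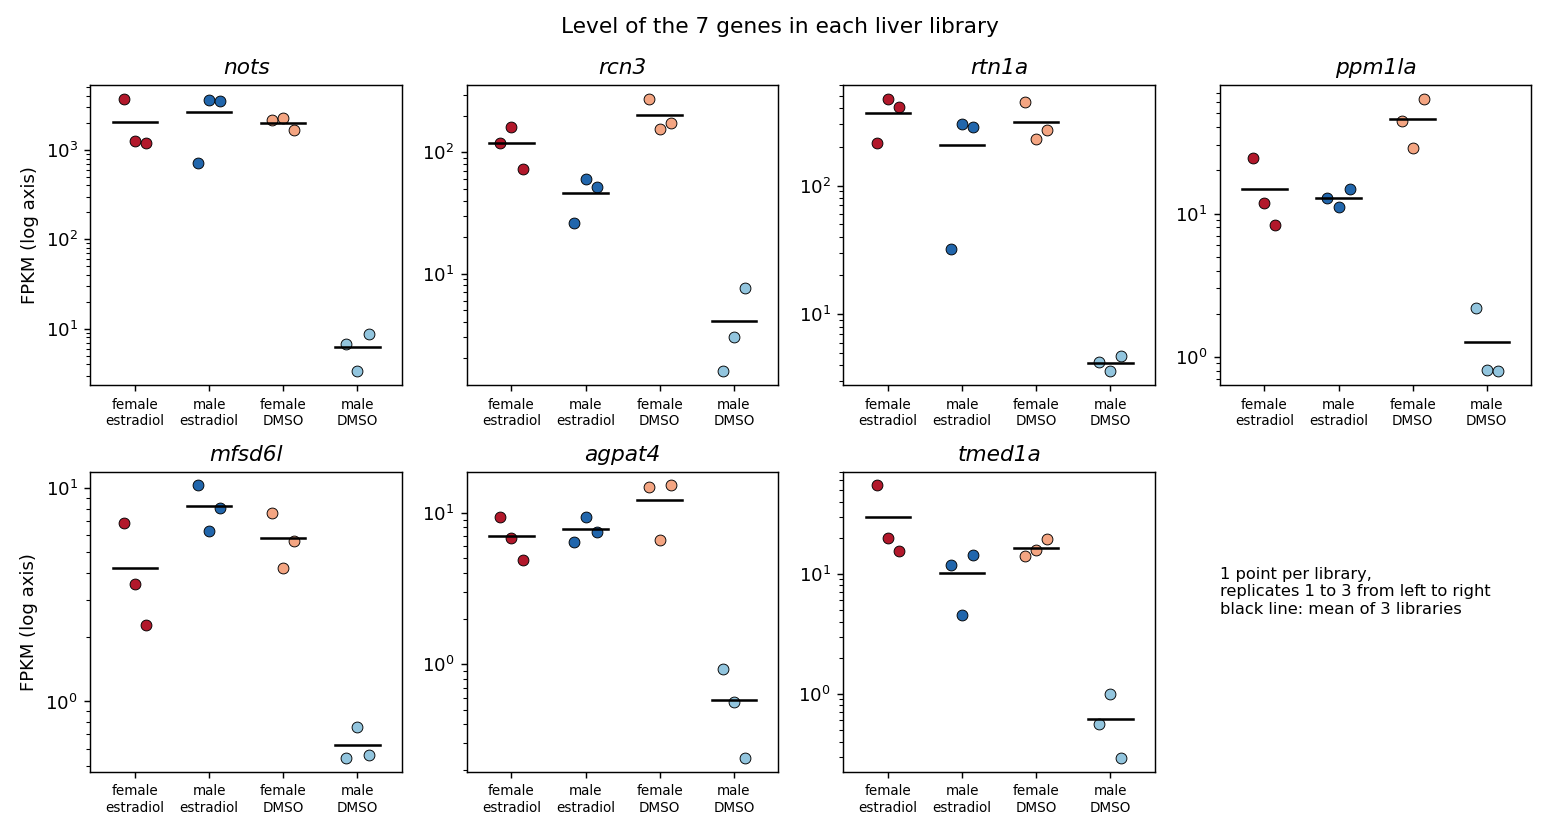
FPKM of each of the 7 genes in each library on log axes, 1 point per library in the order of replicates 1 to 3, with the group mean as a line. The male DMSO points lie below all others in every panel, and male estradiol replicate 1 stands apart for nots (718 FPKM) and rtn1a (32.4 FPKM).

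The differences that chose the genes are described next, with no test. Male estradiol minus male DMSO, on the scale of log2(FPKM + 1), came to 8.26 for nots, 4.79 for rtn1a, 3.32 for rcn3, 2.69 for tmed1a, 2.67 for ppm1la, 2.49 for mfsd6l and 2.48 for agpat4. The order by female DMSO minus male DMSO was close but not the same: 8.19 for nots, 5.88 for rtn1a, 5.48 for rcn3, 4.34 for ppm1la, 3.44 for tmed1a, 3.01 for agpat4 and 2.04 for mfsd6l. By limma with an adjusted p under 0.05, 7 of 7 were higher in both comparisons, which the choice fixed. These calls were not all kept. With 1 library left out, 5 to 7 of 7 were called higher in female DMSO than in male DMSO. The count was 5 without male DMSO replicate 1 or 3. In male estradiol against male DMSO it was 6 or 7. Since the choice fixed these calls, the counts describe the fits and test nothing. Leaving out both intestine-rich female DMSO libraries leaves 1 library in that group. The median difference from male DMSO was then 4.89, beside 4.34 with all libraries. Over all genes tested with all libraries, 0.881% were called higher and 2.91% lower in male estradiol than in male DMSO. In female DMSO against male DMSO 0.239% were called higher and 0.316% lower. These comparisons share the male DMSO libraries. Male estradiol replicate 1 lowered the differences of nots and rtn1a from male DMSO, which without it were 9.03 and 5.84. The pseudocount of 1 lowers the differences of genes near 1 FPKM, and with 0.1 in its place those of male estradiol minus male DMSO were 3.66 for agpat4, 3.51 for mfsd6l and 3.81 for tmed1a.

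How far estradiol males came toward control females differed between the genes. The male estradiol mean was 130% of the female DMSO mean for nots and 141% for mfsd6l, between 62.2% and 65.7% for tmed1a, agpat4 and rtn1a, 28.5% for ppm1la and 22.6% for rcn3. For rcn3 and ppm1la no male estradiol library reached the female DMSO range. Single libraries ran from 10.3% (rtn1a, replicate 1) to 179% (nots, replicate 2) of the female DMSO mean. Both groups were used to choose the genes, so these shares were not tested.

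In the fit over all genes, 12 genes were called higher in both of those comparisons. The 5 that are not members lie just outside the list. Of these, apoa1b and apoa2, which encode apolipoproteins, and pmepa1 were listed at 0 in all male DMSO libraries, and esr1 and cyp2k6, a cytochrome P450 gene, were not chosen as members either. cyp2k6 was at 8.68, 12.1 and 14.7 FPKM in female estradiol, 4.31, 7.69 and 27.8 FPKM in male estradiol, 60.0, 71.2 and 25.0 FPKM in female DMSO, and 0.128, 0 and 0.144 FPKM in male DMSO. The estrogen receptor esr1 was at 10.3, 13.3 and 11.9 FPKM in female estradiol, 4.40, 36.4 and 7.35 FPKM in male estradiol, 88.5, 37.0 and 65.5 FPKM in female DMSO, and 1.35, 1.06 and 0.785 FPKM in male DMSO. Like ppm1la, both had every male estradiol library above male DMSO. All estradiol libraries lay below female DMSO for esr1, and all but male estradiol replicate 3 for cyp2k6.

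Female livers given estradiol supply the measurements that did not enter the choice. Set against male DMSO, all 7 genes were higher in female estradiol (limma, adjusted p under 0.05 over 9190 genes). For comparison, 2.26% of all genes tested were called higher and 6.16% lower. In all 7 genes every female estradiol library was above every male DMSO library, which held for 14.4% of all genes. The median difference of the 7 was 4.07 on the log2 scale, beside 0.00 over all genes. The low male DMSO level was part of the choice and pulls these differences upward. The p-values and the count of calls do not allow for this.

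The largest of these differences was that of nots, whose level in female estradiol livers averaged 2064 ± 1461 FPKM, against 6.23 ± 2.70 FPKM in male DMSO livers (SD, n = 3 each). Its log2 difference was 8.02 (SE 0.67, limma adjusted p = 4.4e-05). rtn1a averaged 365 ± 136 FPKM in female estradiol and 4.17 ± 0.556 FPKM in male DMSO, a log2 difference of 6.07 (SE 0.72, limma adjusted p = 0.000594). These transcripts, of a protease and of a membrane-shaping protein, were at levels of the same order in females with and without the hormone. rcn3 differed by 4.67 (SE 0.52, limma adjusted p = 0.000435) and tmed1a by 4.07 (SE 0.50, limma adjusted p = 0.000692). ppm1la differed by 2.74 (SE 0.45, limma adjusted p = 0.00347) and agpat4 by 2.33 (SE 0.39, limma adjusted p = 0.00414). mfsd6l had the smallest difference, 1.597 (SE 0.38, limma adjusted p = 0.0250). Its call was the only one of the 7 that ended under any alternative. Leaving out male DMSO replicate 1, 2 or 3 ended it (limma adjusted p = 0.101, 0.0782 and 0.0719), as did a fit without female estradiol replicate 1 (0.0632), with the oocyte level as a covariate (0.132), rescaling with the most abundant genes set aside (0.0674) and without both intestine-rich female DMSO libraries (0.0607). Over all 25 alternatives its adjusted p ran from 0.00522 to 0.132.

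Between female estradiol and female DMSO livers, none of the 7 passed the limma threshold. Over all genes, 0.49% were called higher and 2.24% lower in female estradiol. At an unadjusted p under 0.05 there was 1 member, ppm1la, beside 1743 of 9190 genes. ppm1la averaged 14.9 ± 8.48 FPKM in female estradiol and 45.4 ± 17.5 FPKM in female DMSO (SD, n = 3 each). Its log2 difference was -1.60 (95% interval -2.57 to -0.63, limma adjusted p = 0.0813). The ppm1la libraries did not overlap between these groups, and the share of all genes without overlap there was not counted. Without female estradiol replicate 1, its highest library of that group, the difference was -2.01 with a limma adjusted p of 0.0403. Leaving out the highest library lowers the female estradiol mean, and the high female DMSO level was part of the choice. Both pull this difference downward, so that p-value is not read as a finding. In female estradiol livers the phosphatase transcript, at 14.9 FPKM on average, was at about the level of estradiol males, 12.9 ± 1.82 FPKM.

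For the other 6 genes the interval of the difference between female estradiol and female DMSO included 0. It ran from -1.63 to 1.28 for nots, -1.94 to 0.33 for rcn3, -1.38 to 1.77 for rtn1a, -1.27 to 0.38 for mfsd6l, -1.53 to 0.17 for agpat4 and -0.46 to 1.73 for tmed1a on the log2 scale. The point values were negative for 5 of the 7, with a median of -0.45, beside -0.08 over all genes. The female DMSO libraries were part of the choice for their high level, which pulls these differences downward. Each of these 6 intervals reaches beyond 1 on the log2 scale in at least 1 direction, which for rcn3, mfsd6l and agpat4 is downward alone.

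**Figure D2:**
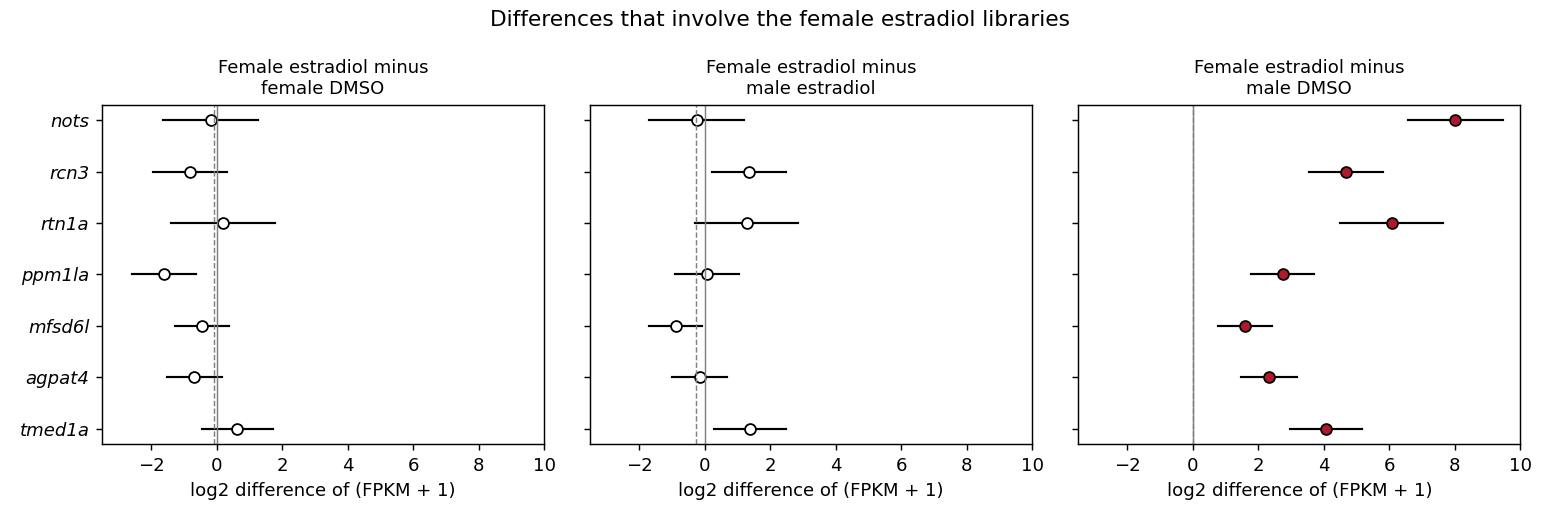
Difference of log2(FPKM + 1) between female estradiol and each other group for the 7 genes, with 95% intervals from limma; filled points have an adjusted p under 0.05 over 9190 genes, and the dashed line is the median of all genes. Filled points appear in the comparison with male DMSO alone, where they run from 1.597 (mfsd6l) to 8.02 (nots).

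Between the sexes under estradiol, none of the 7 passed the limma threshold either, and in all genes tested 0.0762% were called higher and 0.0326% lower in females. Unadjusted limma p-values under 0.05 were found for 3 members and for 1017 of 9190 genes. tmed1a was higher by 1.38 (95% interval 0.29 to 2.48, limma adjusted p = 0.377) and rcn3 by 1.35 (0.22 to 2.49, limma adjusted p = 0.382), in both cases with all 3 female libraries above all 3 male libraries. mfsd6l differed by -0.89 (-1.72 to -0.07, limma adjusted p = 0.420). For nots the interval ran from -1.69 to 1.21, for ppm1la from -0.90 to 1.04 and for agpat4 from -1.004 to 0.69. The rtn1a difference was 1.28 (-0.30 to 2.86), and 0.23 without male estradiol replicate 1. The male estradiol libraries were chosen for high values, which pulls these differences downward. The estradiol libraries of tmed1a and rcn3 were separated by sex, without passing the adjustment. The share of all genes separated in this way was not counted, so the separation is not read as particular to these members.

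Replicates within a group did not rank alike for all members. Male estradiol replicate 1 was the lowest of its group for nots, rcn3, rtn1a and agpat4 and the highest for mfsd6l. It had the lowest sum of hepatocyte markers, 25448 FPKM, and the lowest sum of FPKM of all libraries. Female estradiol replicate 1 was the highest of its group for 5 members and replicate 3 the lowest for 6. Across the 12 libraries the correlation of log2(FPKM + 1) between members ran from 0.729 to 0.958 over 21 pairs, with a median of 0.882. All 7 were chosen to be low in male DMSO, so a high value here is no finding. For deviations from the group means it ran from -0.465 for rtn1a with tmed1a to 0.792 for ppm1la with agpat4, with a median of 0.250. Within groups nots, rcn3 and rtn1a had values of 0.508 to 0.569 with each other. Those of rtn1a with ppm1la, mfsd6l and tmed1a were below 0. These are descriptions over libraries that share depth and tissue make-up.

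The marker sums of other tissues moved with the groups too. Oocyte markers were low in all male DMSO libraries, with no marker at 1 FPKM or more, and high in 4 of the 6 estradiol libraries, so they are higher where the 7 genes are higher. The most abundant of them was cldnd, at 1975, 0 and 176 FPKM in female estradiol, 1269, 16.9 and 552 FPKM in male estradiol, 26.6, 115 and 5.74 FPKM in female DMSO, and 0.661, 0 and 0.150 FPKM in male DMSO. In female estradiol replicate 2, 16 of 22 oocyte markers were at 0. There nots was at 1254, rcn3 at 163 and rtn1a at 475 FPKM, the last 2 being the highest of their group. The other 5 members were highest in female estradiol replicate 1, which had the highest oocyte sum (6235 FPKM). In that library nots was at 3750.1 and tmed1a at 54.6 FPKM, beside 1254 and 19.7 FPKM in replicate 2. In male estradiol replicate 2, with an oocyte sum of 68.5 FPKM, nots (3610.4 FPKM), rcn3, rtn1a and agpat4 were at their highest of the group. The remaining members, ppm1la, mfsd6l and tmed1a, were at their lowest of the group there. With the 4 oocyte-rich estradiol libraries left out, the differences of the 7 genes between female estradiol and male DMSO ran from 1.49 for mfsd6l to 7.52 for nots. That fit has 1 library in each estradiol group and assumes that it varies like the others. Low male DMSO levels were part of the choice, and the part of oocyte transcripts in these differences was not tested. With the oocyte level as a covariate, 6 of the 7 were called higher in female estradiol than in male DMSO, beside 95 of 9190 genes. In male estradiol against male DMSO the same fit called 6 of 7 higher, beside 111 of 9190 genes. The genes were chosen on that comparison, so this count describes the fit and tests nothing. In female estradiol minus male DMSO it gave 7.05 for rtn1a and 3.40 for tmed1a. For mfsd6l it gave 1.33, and that call ended (limma adjusted p = 0.132). Pancreas markers were low in both estradiol groups and high in both DMSO groups, and their part in the results was not tested.

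**Figure D3:**
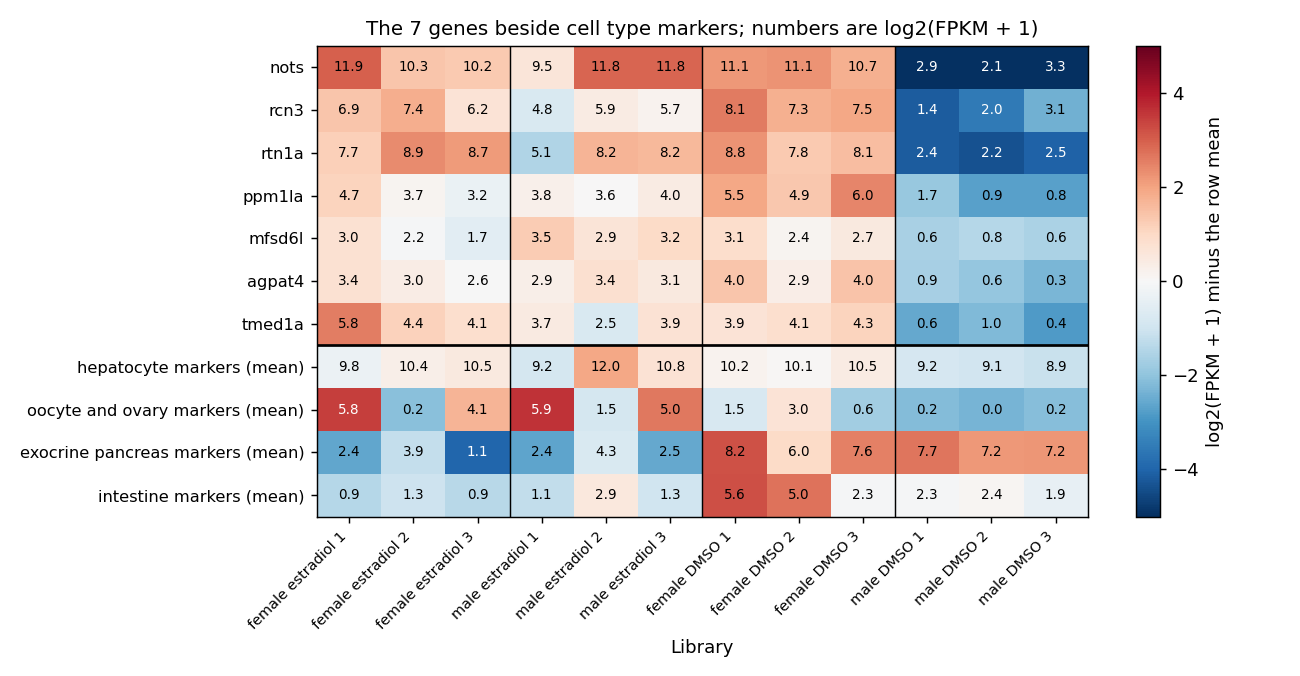
log2(FPKM + 1) of the 7 genes and the mean of log2(FPKM + 1) over 4 lists of cell type markers in each of the 12 libraries, with colour for the difference from the row mean. Female estradiol replicate 2 shows low oocyte markers (mean 0.2) beside nots at 10.3, below its replicate 1, and rtn1a at 8.9, the highest of its group. All 3 male DMSO columns are low for the 7 genes.

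The relatives of the 7 genes, by gene family, were counted next. Of 50 relatives tested, 2 were called higher and 2 lower in male estradiol than in male DMSO (limma), and none in either direction in female DMSO against male DMSO. Beside the 0.881% and 2.91% of all genes called higher and lower in males, and the 0.239% and 0.316% in control females, counts this small show nothing particular to the relatives. In the reticulocalbin family calub, which encodes a calumenin, rose by 1.70 (SE 0.41, limma adjusted p = 0.0397), with 23.8, 35.5 and 15.6 FPKM in male estradiol and 5.63, 6.59 and 7.72 FPKM in male DMSO. Among the MFSD transporters mfsd2aa, of a family that carries lysophospholipids into cells, rose by 2.74 (SE 0.62, limma adjusted p = 0.0310), with 16.0, 2.66 and 6.56 FPKM in male estradiol and 0.0919, 0.313 and 0.103 FPKM in male DMSO. Neither call was firm. The calub call ended without any 1 of the DMSO libraries, male estradiol replicate 1 or female estradiol replicate 3, with adjusted p up to 0.178. The mfsd2aa call ended without any 1 of the male DMSO libraries or male estradiol replicate 1 or 3, with adjusted p up to 0.135 in those fits and 0.210 with the oocyte level as a covariate. Without male estradiol replicate 2, 11 relatives were called higher and 4 lower. In that fit 1449 of all 9045 genes tested were called higher and 771 lower.

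The relatives that fell were a reticulon and an acyltransferase, of the families of rtn1a and agpat4, which were chosen for the opposite direction. rtn3 was at 22.96, 13.4 and 14.5 FPKM in female estradiol, 22.001, 24.8 and 33.1 FPKM in male estradiol, 63.7, 44.6 and 93.6 FPKM in female DMSO, and 107, 74.8 and 110.1 FPKM in male DMSO. Both estradiol groups lay below both DMSO groups in every library. It fell by 1.83 in male estradiol against male DMSO (SE 0.38, limma adjusted p = 0.0229), by 2.47 in female estradiol against male DMSO (limma adjusted p = 0.00271) and by 1.90 in female estradiol against female DMSO (limma adjusted p = 0.0273). The call in males ended without any 1 of the male DMSO libraries or male estradiol replicate 1 (adjusted p up to 0.121), after rescaling (0.0902) and with the oocyte covariate (0.0899). The call in females ended in 7 of 25 alternatives, among them those without female DMSO replicate 1 or 3 or female estradiol replicate 2 or 3 (adjusted p up to 0.103). agpat9, which encodes a glycerol-3-phosphate acyltransferase, was at 0.740, 3.07 and 3.96 FPKM in female estradiol, 1.75, 4.65 and 3.11 FPKM in male estradiol, 14.6, 7.97 and 12.3 FPKM in female DMSO, and 31.5, 22.8 and 19.5 FPKM in male DMSO. It fell by 2.65 in male estradiol against male DMSO (SE 0.45, limma adjusted p = 0.00707), a call that ended without male DMSO replicate 1 (0.0537) and with the oocyte covariate (0.0777). In female estradiol against male DMSO it fell by 2.94 (limma adjusted p = 0.0026), and in female estradiol against female DMSO it fell by 1.91 (limma adjusted p = 0.0470), where the call ended in 20 of 25 alternatives.

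Further relatives were called in comparisons with female estradiol. tmed5 fell by 1.91 against female DMSO (limma adjusted p = 0.0391, ended in 13 of 25 alternatives), while tmed1a of the same family had 0.63 there. agpat2 and lpgat1, acyltransferase genes like agpat4, rose by 1.39 and 2.18 against male DMSO (limma adjusted p = 0.0445 and 0.0366, ended in 16 and 10 of 25). lpgat1 was at 7.99, 13.97 and 12.9 FPKM in female estradiol, 4.31, 26.9 and 5.36 FPKM in male estradiol, 16.5, 9.35 and 20.7 FPKM in female DMSO, and 2.24, 1.89 and 1.14 FPKM in male DMSO. As in the 7 genes, every library of the other groups was above every male DMSO library, with log2 differences from male DMSO of 1.85 in male estradiol and 2.54 in female DMSO that did not pass the threshold (limma adjusted p = 0.0893 and 0.0773). The abundant relatives that were not called include tmed10, at 163 FPKM on average in female estradiol, 159.9 in male estradiol, 248 in female DMSO and 109 in male DMSO, and rtn4a, at 107, 144, 238 and 242 FPKM in the same order. No relative came near the difference of nots: the 2 other aspartic protease genes tested, ctsd and bace1, differed by -1.14 and 0.15 between male estradiol and male DMSO.

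**Figure D4:**
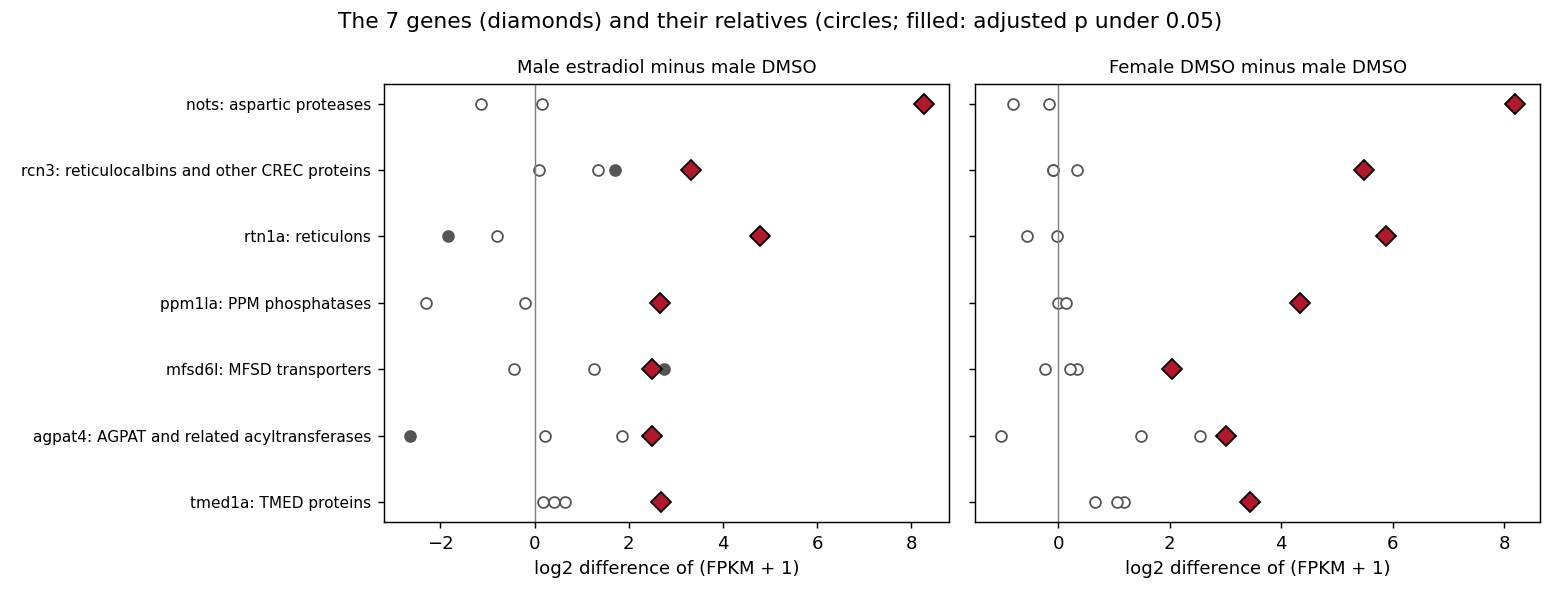
Difference of log2(FPKM + 1) between male estradiol and male DMSO (left) and between female DMSO and male DMSO (right). Diamonds are the 7 genes and circles are relatives, filled where the limma adjusted p is under 0.05. Drawn were only relatives called in any comparison or, with fewer than 2 in a family, the most abundant ones. Relatives not drawn reached 3.41 among the acyltransferases (left), beside 2.48 for agpat4. Among the reticulons they reached 2.31 (right), beside 5.88 for rtn1a. Filled circles are present on the left alone (calub, mfsd2aa, rtn3 and agpat9), and nots lies above 8 in both panels.

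Pathways linked to the members, for ppm1la through its mammalian counterpart, were counted from lists. Over all genes tested, 0.881% were called higher and 2.91% lower in male estradiol than in male DMSO. Of 71 early secretory pathway genes tested, 2 rose in male estradiol against male DMSO and none fell, with a median of 0.37 beside 0.21 over all genes. They were kdelr3, a receptor that returns proteins to the endoplasmic reticulum (2.25, SE 0.55, limma adjusted p = 0.0429), and yif1a, of vesicle transport (2.015, SE 0.48, limma adjusted p = 0.0379). Of 42 genes for protein folding in the endoplasmic reticulum, 2 rose and 1 fell, with a median of 1.13. herpud1, a gene of the response to unfolded proteins, rose by 2.85 (SE 0.41, limma adjusted p = 0.00327), with 59.5, 146 and 88.9 FPKM in male estradiol and 11.4, 13.5 and 10.997 FPKM in male DMSO. This call was kept in all 25 alternatives. fkbp14, a prolyl isomerase gene, rose by 1.95 (limma adjusted p = 0.0267), and pdia2, which is also a pancreas marker, fell by 2.22 (limma adjusted p = 0.00686), with the pancreas list at 114 to 593 FPKM in male estradiol and 5568 to 7581 FPKM in male DMSO. The pdia2 call ended with the oocyte covariate (adjusted p = 0.0713) and with the 4 oocyte-rich libraries left out (0.0505). The kdelr3, yif1a and fkbp14 calls all ended without any 1 of the male DMSO libraries or male estradiol replicate 3, and those of yif1a and fkbp14 also without male estradiol replicate 1. Without any 1 of the female DMSO libraries the kdelr3 and yif1a calls ended as well, and without female estradiol replicate 3 that of kdelr3.

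The lipid lists were counted in the same way, without agpat4 and ppm1la, which were chosen to be higher. Of 21 other genes of phospholipid and triglyceride synthesis, none rose and 2 fell in male estradiol against male DMSO. Among all genes tested, 0.881% were called higher and 2.91% lower there. The genes that fell were dgat2, by 3.04 (limma adjusted p = 0.0235), and mogat3a, by 2.27 (limma adjusted p = 0.0369), both of triglyceride synthesis. The dgat2 call ended without any 1 of the male DMSO libraries or male estradiol replicate 1 or 3 (adjusted p up to 0.110), and that of mogat3a without any 1 of the DMSO libraries, male estradiol replicate 1 or female estradiol replicate 3 (up to 0.147). In female estradiol against male DMSO chka, a choline kinase gene, rose by 2.54 (limma adjusted p = 0.0141), beside 2.26% of all genes called higher. The chka call ended without male DMSO replicate 1 or 3 (limma adjusted p = 0.0619 and 0.0601). Of 15 genes of ceramide synthesis and transport 1 rose, ugcg, which encodes glucosylceramide synthase (1.56, SE 0.38, limma adjusted p = 0.0417). That call ended without any 1 of the DMSO libraries or male estradiol replicate 3 (adjusted p up to 0.159). In female DMSO against male DMSO no gene of these 4 lists passed the threshold, beside 0.239% called higher and 0.316% lower among all genes.

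Of the estrogen receptors esr1, esr2a, esr2b and gper1, esr1 was the one with calls, all against male DMSO. It was higher by 4.89 in female DMSO (SE 0.60, limma adjusted p = 0.00161), by 2.64 in female estradiol (limma adjusted p = 0.0214) and by 2.54 in male estradiol (limma adjusted p = 0.0382), each against male DMSO. In female estradiol against female DMSO esr1 was lower, by 2.25, which did not pass the threshold (limma adjusted p = 0.0722). The female DMSO call ended without both intestine-rich female DMSO libraries. That fit holds 1 female DMSO library and gave a difference of 5.02. The female estradiol call ended without any 1 of the male DMSO libraries or female estradiol replicate 3 (adjusted p up to 0.0740). The male estradiol call ended in 13 of 25 alternatives, among them without any 1 of the DMSO libraries, male estradiol replicate 3 or female estradiol replicate 3. esr2b averaged 10.4 ± 8.49 FPKM in female estradiol, 2.87 ± 1.81 in male estradiol, 22.7 ± 7.71 in female DMSO and 9.02 ± 4.72 in male DMSO (SD, n = 3 each). esr2a averaged between 1.43 and 2.76 FPKM in all groups. gper1, the membrane receptor named in the title of the study, was at 0.0490 FPKM or less in every library. esr2a and esr2b passed no threshold in these comparisons.

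Genes with profiles like that of the members were ranked by Pearson correlation of log2(FPKM + 1) over the 12 libraries, which share group, tissue and depth. All 7 were chosen to be low in male DMSO, so genes low there and higher elsewhere come near the top, and the order is a description. Closest to the mean profile of the 7 were pmepa1 (0.976), apoa2 (0.969), apoa1b (0.955), cyp2k6 (0.902) and mastl (0.876). The first 3 are those listed at 0 in all male DMSO libraries, which can be failed estimates. For nots they were pmepa1 (0.988), apoa2 (0.979), apoa1b (0.970) and the members rtn1a (0.944) and agpat4 (0.935). For rcn3 they were rtn1a (0.940) and cyp2k6 (0.914), and for rtn1a pmepa1 (0.952) and apoa2 (0.950). For ppm1la they were agpat4 (0.958) and eif5a2 (0.912), and for agpat4 ppm1la (0.958) and pmepa1 (0.948). For mfsd6l they were cd82b (0.943) and imp4 (0.917), and for tmed1a fam49ba (0.933) and cdkn2aipnl (0.909), neither pair holding a member.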

How the data were processed

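Liver RNA of 12 zebrafish samples in 4 groups of 3 was measured by stranded RNA sequencing. Reads were trimmed with cutadapt, aligned with TopHat2 2.0.11 and quantified with Cufflinks 2.2.1 on danRer7, per the submitters' processing notes. Which annotation was used is not given in the sources used here. The deposited table holds 1 value per gene symbol and library, taken as FPKM from the values and from Cufflinks, since its header names no unit. Whole reads could not be recovered (no log2 bin of width 0.01 held more than 1.54% of 1103 low-valued genes), so depth is unknown and no counting interval is given. No pair of libraries was identical. Columns were tied to samples by the library number in the titles.

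Genes that reached 1 FPKM in 3 or more libraries were fitted as log2(FPKM + 1) with limma 3.58.1 in R 4.3.3 (4 group means, 12 libraries, eBayes with trend, Benjamini-Hochberg over 9190 genes, threshold 0.05; checked on simulated data). Figures and counts used Python 3.11.15, pandas 2.3.3, numpy 2.4.6 and matplotlib 3.10.9. "Rose", "fell" and "called" mean past this threshold, and intervals are 95%.

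The 7 genes and all lists (relatives by gene family, early secretory pathway, protein folding in the endoplasmic reticulum, phospholipid and triglyceride synthesis, ceramide, steroid receptors, other estrogen-responsive liver genes, cell type markers) were chosen with earlier results of these data known. Named were all members, each called relative or, with fewer than 2, the most abundant ones, up to 4 called genes per other list, and the genes of highest correlation, leaving out clone names. Some named by the rule are left out for length. Alternatives were other pseudocounts, filters, scalings, covariates, weights, and leaving out libraries. The RefSeq gene table (GRCz12tu) differs in build from the files and gave gene order only. Whether counting used strand is not stated, so rcn3 and rtn1a, which overlap nosip and lrrc9 there, agpat4, which overlaps map3k4, and genes with near-identical copies may share reads with them.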

Additional observations from a re-analysis of the deposited data

Results flagged for a closer look

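The differences of ppm1la between estradiol and DMSO livers had opposite signs in females and males. Its log2 difference was -1.60 in female estradiol against female DMSO and 2.67 in male estradiol against male DMSO. Every female estradiol library was below every female DMSO library, and every male estradiol library above every male DMSO library. The share of all genes separated in these ways was not counted. The difference between these effects was not tested, because ppm1la was chosen for its higher level in male estradiol, and for a high level in female DMSO. Opposite signs were not particular to ppm1la. The female difference was negative for 5 of the 7 members, and the male difference was positive for all 7. esr1, which is not a member, had -2.25 in females and 2.54 in males, with its libraries separated in the same ways. Choosing genes that are high in female DMSO and low in male DMSO favours this pattern.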

How the results depend on the processing

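Of the 25 alternatives, 12 of them leaving out 1 library, all called 6 or 7 of the 7 genes higher in female estradiol than in male DMSO. The count called between female estradiol and female DMSO was 0 except with array weights, whose fit did not converge (3), and ran from 0 to 1 when 1 library was left out. Between female and male estradiol it was 0 except with array weights (2). With a pseudocount of 0.1 the median difference of the 7 genes was 3.67 in male estradiol and 5.14 in female DMSO, each against male DMSO; leaving out 1 library it ran from 2.54 to 3.08 and from 4.07 to 4.63.

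The count of relatives called in male estradiol against male DMSO was unstable, and the cause was not tested. Higher, beside 2, were 0 with no filter, with only the groups compared, with the replicate block and without the intestine-rich female DMSO libraries, 1 with a filter of 5 FPKM or after rescaling with vitellogenins and the 10 highest genes set aside, 5 without the oocyte-rich libraries, 24 with array weights, and 0 to 11 leaving out 1 library. Lower, beside 2, were 1 after rescaling, 0 with the oocyte covariate, 11 with array weights, and 0 to 4 leaving out 1 library. Calls over all genes moved as well, from 81 higher and 267 lower of 9190 in the main fit. They were 1449 and 771 of 9045 without male estradiol replicate 2, and 2971 and 2555 of 9190 with array weights.

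Some differences whose intervals include 0 changed sign. For nots, female estradiol minus female DMSO was 0.25 with quantile normalization, 0.16 after rescaling, 0.10 without the intestine-rich libraries and -0.71 to 0.12 leaving out 1 library; minus male estradiol it was 0.0153 with median-of-ratios scaling and -1.02 to 0.15 leaving out 1 library. For rtn1a, female estradiol minus female DMSO was -0.0354 to 0.54 leaving out 1 library. For ppm1la, female minus male estradiol was -0.32 after rescaling, -0.59 with array weights and -0.33 to 0.39 leaving out 1 library. For agpat4 it was 0.17 with quantile normalization, 0.0670 with median-of-ratios scaling and -0.36 to 0.0472 leaving out 1 library. Rescaling moved the median of all genes in male estradiol minus male DMSO to 0.61, beside 0.21.

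Of 18 same-numbered pairs of libraries, 4 had deviations from the group means correlated above 0.1, with a range of -0.433 to 0.573. All 4 paired a male with a female library of the same treatment: 0.170 and 0.128 under DMSO, 0.494 and 0.573 under estradiol. Unlike-numbered pairs of the sexes under estradiol ran from -0.532 to 0.206. The replicate block spans all 4 groups, so a pairing of the sexes within a treatment was not tested. With the replicate block 7 members were called higher in female estradiol than in male DMSO, 0 against female DMSO and 0 against male estradiol. Fits that leave out the oocyte-rich libraries hold 1 library in each estradiol group, assumed to vary like the others. The fit without the intestine-rich libraries holds 1 female DMSO library, under the same assumption. The promoter motif and protein features were not run. FPKM without depth limits what low values can show.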

Other observations

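Among 28 other genes tested that are known to respond to estrogen in liver, 2 rose and 12 fell in male estradiol against male DMSO. Over all genes tested, 0.881% were called higher and 2.91% lower. The list was chosen with earlier results of these data known, so its counts are a description. lipg, which encodes endothelial lipase, rose by 4.57 (SE 0.53, limma adjusted p = 0.000935), with 76.0, 52.8 and 39.0 FPKM in male estradiol and 0.158, 2.45 and 2.11 FPKM in male DMSO. It also rose in female estradiol against male DMSO by 3.56 (limma adjusted p = 0.0021), and both calls held in all 25 alternatives. In female DMSO, lipg was at 4.95, 6.79 and 7.54 FPKM, below every estradiol library of either sex. The other rise was of tfa, a transferrin gene listed at 0 in all DMSO libraries, which can be a failed estimate. The fallen genes include 6 vitellogenins listed at 0 in every library but those of male DMSO, for which no fold is given.

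The genes that neighbour the 7 in RefSeq gene order were looked at too. Of 28 neighbours looked up, 2 on each side, 18 were in the table and 11 were tested. None was called higher and 1, pgam1a near rtn1a, was called lower in male estradiol against male DMSO, beside 0.881% and 2.91% of all genes. In female estradiol against male DMSO 1 was called higher, zgc:194336 beside nots (1.39), and 1 lower, pgam1a (-2.81). Over all genes 2.26% were called higher there and 6.16% lower. zgc:194336 was near the floor, at 0.388 FPKM or less in male DMSO and 0.859 to 3.58 FPKM in female estradiol. pgam1a was also called lower in female estradiol against female DMSO (-2.67), beside 2.24% of all genes. The median difference of the 11 was 0.29 in male estradiol and 0.61 in female estradiol, each against male DMSO, beside 0.21 and 0.00 over all genes. nosip, which overlaps rcn3, was at 22.1, 14.3 and 6.999 FPKM in female estradiol, 9.17, 5.12 and 7.57 FPKM in male estradiol, 15.9, 9.16 and 5.37 FPKM in female DMSO, and 6.66, 6.05 and 3.04 FPKM in male DMSO. The groups overlapped. lrrc9, which overlaps rtn1a, was at 0.558 FPKM or less in every library. Next but 1 to ppm1la lies zp3b, an egg coat gene of the oocyte list, at 376, 0.377 and 104 FPKM in female estradiol, 609, 8.82 and 286 FPKM in male estradiol, 8.72, 34.9 and 1.0997 FPKM in female DMSO, and 0.294, 0 and 0.256 FPKM in male DMSO.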
